A study of Mus musculus with 40 samples.

Results

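The respiratory chain of the inner mitochondrial membrane passes electrons from NADH and succinate to oxygen and uses the energy to make ATP. Complex I takes electrons from NADH, complex II from succinate, complex III hands them to cytochrome c, complex IV reduces oxygen, and complex V, the ATP synthase, is driven by the proton gradient that complexes I, III and IV build. Most subunits are encoded in the nucleus and imported, while a small core set is encoded on the mitochondrial chromosome. This set is transcribed as long precursors from both strands, which are cut into shorter RNAs, most of them polyadenylated. Neurons depend on this pathway for the energy of their axons and synapses, and astrocytes draw more of their energy from glycolysis.

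The genes described here are the protein-coding genes of the count table whose mouse symbols name a subunit of complexes I to V (*Nduf*, *Sdh*, *Uqcr*, *Cox4* to *Cox8* and *Atp5* genes) or begin with mt-. They number 98 of the 55487 genes in the table, of which 21974 are protein-coding, and 13 are mitochondrial-encoded and 85 nuclear-encoded. By name, complex I has 7 mitochondrial-encoded and 37 nuclear-encoded members, complex II 4 nuclear-encoded members, complex III 1 and 8, complex IV 3 and 18, and complex V 2 and 18. *Ndufa4* and *Ndufa4l2* are counted under complex I by their names, although the NDUFA4 protein is known as a subunit of complex IV. *Atp5o* stands in the table under 2 Ensembl identifiers at overlapping places, and both were kept.

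ES-motor neurons and ES-astrocytes were both differentiated from a mouse embryonic stem cell line (B6.Cg-Tg(Hlxb9-GFP)1Tmj/J), in which Hb9, a transcription factor gene of motor neurons, lends its promoter to the green fluorescent protein used for sorting. ES-astrocytes received a control medium, IL-1α and TNF-α, C1Q and C5, IL-1β and IL-6, or TGF-β2 for 24 h, and sorted ES-motor neurons were then plated on top of them. After co-culture a cell sorter parted the 2 cell types again, with about 200 cells to a sample, in 4 biological replicates (A to D) of each of 5 treatments, so that each cell type has 20 libraries. All groups share the stem cell line, retinoic acid and a smoothened agonist during differentiation (in mM by the labels and in µM by the paper) and, for ES-astrocytes, epidermal and basic fibroblast growth factors followed by differentiation factors that the labels do not name and, by the paper, forskolin, which raises cyclic AMP. The medium with the stimuli was left on when ES-motor neurons were added, so that these may have met remains of them. By the paper a biological replicate of ES cells is a vial of its own of a given passage, so that a p-value here measures the spread between such samples of 1 line. Polyadenylated RNA was copied with a template switch, fragmented with Tn5 and sequenced, and no molecular identifiers are named. The Wilson intervals of shares and the limits for 0 counts given below therefore cover counting error only, whereas intervals of log2 fold changes include the spread between libraries.

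ES-astrocyte libraries held 1510823 to 16054290 counts (median 4670241.5) and ES-motor neuron libraries 6557 to 19717324 (median 1213482). Where no read was counted the level was taken as under 3 counts, that is 0.187 to 1.99 CPM (counts scaled to one library total) in ES-astrocytes, against 0.152 to 458 CPM in ES-motor neurons. In 9 libraries, all of ES-motor neurons, the total was under 20% of the median of all 40 libraries: IL-1α and TNF-α A to D, C1Q and C5 A (the library of 6557 counts), IL-1β and IL-6 B and D, control C and TGF-β2 A. Index primers S337 and S339 were used only for ES-astrocytes and S338 and S340 only for ES-motor neurons, so that primer and cell type cannot be told apart. Control, IL-1α and TNF-α have plate index 1 (16 libraries) and the other 3 treatments plate index 2 (24 libraries), so that these 3 stimuli and the plate index cannot be told apart in a comparison with the control.

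The labelled cell types were checked against marker genes. Summed over 12 motor neuron markers, the median was 7924 normalised CPM in ES-motor neurons and 1660 in ES-astrocytes, with *Stmn2* the most abundant in either, and 10 of 12 were higher in ES-motor neurons by the test used below. Of 12 astrocyte markers 7 could be tested, of which 6 were higher in ES-astrocytes, against 1 in ES-motor neurons, and the sums of all 12 had medians of 1851 in ES-astrocytes, against 361 in ES-motor neurons. *Fabp7* was the most abundant of these in ES-astrocytes, whereas *Gfap*, *Aqp4* and *Aldh1l1*, markers of mature astrocytes, had 0 counts there. In ES-motor neurons *Gfap* had counts, while *Aqp4* and *Aldh1l1* again had 0. All 6 markers of proliferating cells were higher in ES-astrocytes (median sums 892 and 4.39 CPM, most abundant *Top2a*), as were 3 of 3 testable fibroblast markers (200.3 and 0 CPM, most abundant *Dcn*). In bulk samples, fewer cells of a type and less RNA per cell cannot be told apart.

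Mitochondrial-encoded and nuclear-encoded members took shares of all counts that overlapped between the cell types. The mitochondrial-encoded members held 0.961% of counts in the lowest ES-astrocyte library, 2.84% at the median and 3.38% in the highest (mean 2.73% ± 0.566, SD, n = 20). In ES-motor neurons they held 1.44%, 2.93% and 4.64% (mean 2.99% ± 0.714, n = 20). The ranges overlapped between 1.44% and 3.38%, with ES-motor neuron libraries above this stretch and ES-astrocyte values below it. The difference of the medians was well under the spread within either cell type. Nuclear-encoded members held 1.57%, 2.91% and 3.97% in ES-astrocytes, against 1.39%, 3.02% and 3.81% in ES-motor neurons. The 11 ES-motor neuron libraries that are not shallow had 2.19%, 3.27% and 4.16% mitochondrial-encoded and 1.69%, 3.03% and 3.72% nuclear-encoded counts.

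The ratio of mitochondrial-encoded to nuclear-encoded counts ran from 0.242 to 2.16 in ES-astrocytes (median 0.940) and from 0.455 to 2.46 in ES-motor neurons (median 1.05). In the 20 pairs of libraries with the same treatment and letter, the ES-motor neuron library had the higher mitochondrial-encoded share in 13, the higher nuclear-encoded share in 12 and the higher ratio in 15. In the 11 pairs whose ES-motor neuron library is not shallow these numbers were 10, 8 and 8. The lowest mitochondrial-encoded share was that of ES-astrocyte control A, at 0.961% (95% Wilson interval 0.955 to 0.968), which also had the highest nuclear-encoded share (3.97%) and the lowest ratio of all 40 libraries. The highest was that of ES-motor neurons under IL-1α and TNF-α B, at 4.64% (4.58 to 4.70), from a library of 445874 counts.

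By treatment, the median mitochondrial-encoded share of ES-astrocytes was 2.87% in the control, 2.80% under IL-1α and TNF-α, 2.44% under C1Q and C5, 3.11% under IL-1β and IL-6 and 2.72% under TGF-β2 (n = 4 each). In ES-motor neurons the same medians were 2.85%, 2.78%, 3.02%, 2.99% and 3.09%. Every one of these groups overlapped the control group of its cell type. The nuclear-encoded medians were 2.77%, 3.02%, 3.03%, 2.91% and 2.94% in ES-astrocytes, against 2.53%, 3.31%, 3.26%, 2.75% and 2.05% in ES-motor neurons, in the same order of treatments. No test was made of a share, since it sums over members chosen with results known.

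**Figure D1:**
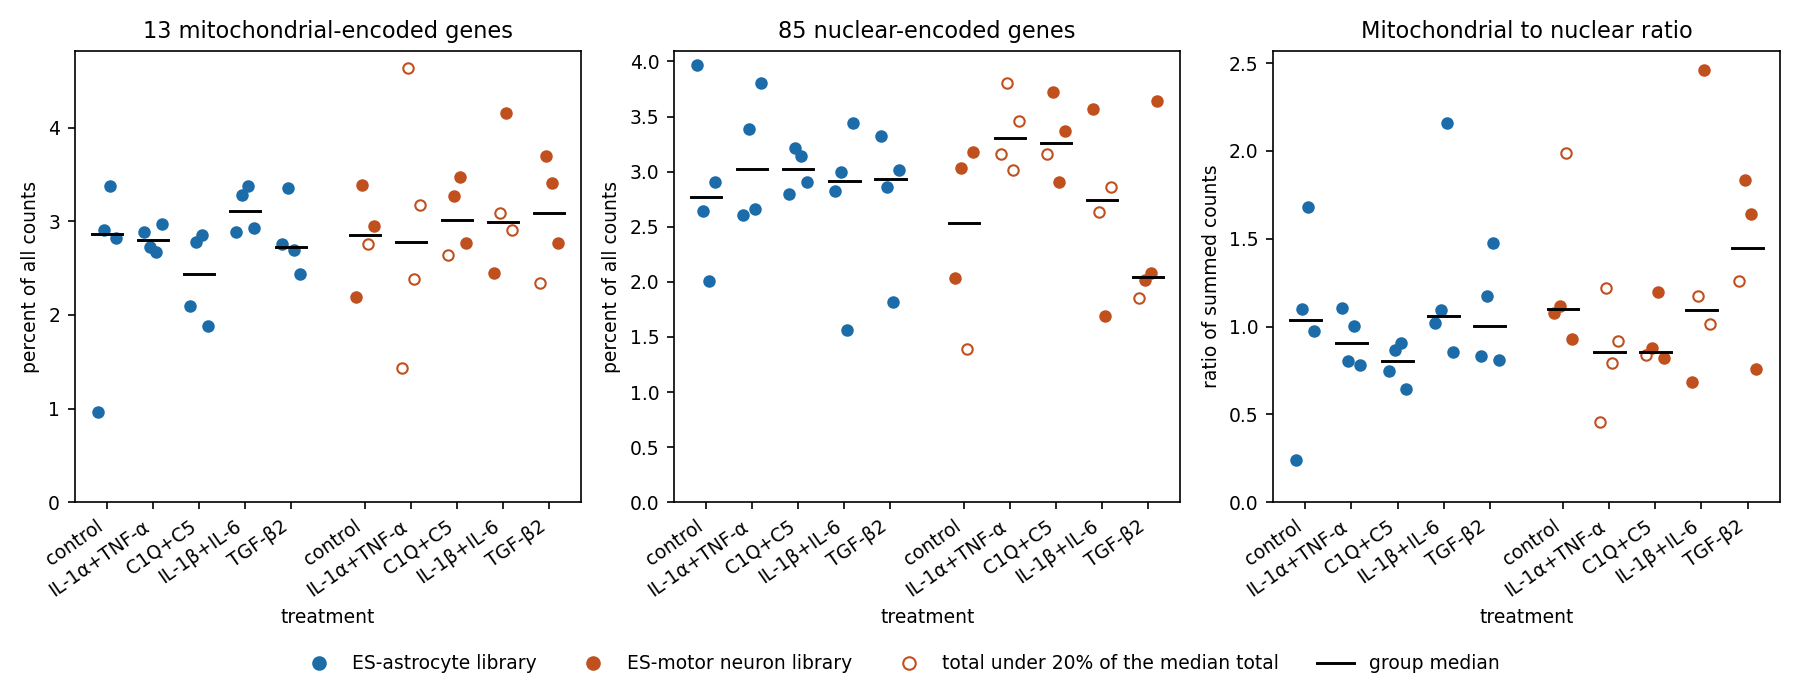
Share of all counts held by mitochondrial-encoded members and by nuclear-encoded members (percent) and the ratio of the former to the latter, per library, by treatment and cell type, with bars at the group medians and open points for libraries under 20% of the median total. Mitochondrial-encoded shares ran from 0.961% to 3.38% in ES-astrocytes, those of ES-motor neurons from 1.44% to 4.64%, and the cell types overlapped in each treatment.

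Of the 13 mitochondrial-encoded genes, 7 carried nearly all of the counts. *mt-Cytb*, which encodes the cytochrome b of complex III, made up 59.3% of mitochondrial-encoded counts in ES-astrocytes, against 59.6% in ES-motor neurons (medians). Per kilobase of the union of a gene's exons, the length used throughout, its mean level over all 40 libraries was 15226 CPM, followed by *mt-Nd1* (3709), a membrane subunit of complex I, and *mt-Co1* (3088), the catalytic subunit of complex IV. *mt-Nd4* followed at 1019 CPM per kilobase, and *mt-Nd6*, the only member encoded on the opposite strand, lay at 786. The highest nuclear-encoded member on this scale, *Ndufa1*, an accessory subunit of complex I, lay at 942. The order of nuclear-encoded members depends on the length used: per kilobase of the longest transcript *Cox4i1* (1406 CPM), *Ndufa7* (1324.5) and *Cox7a2* (1250.4) lay above *Ndufa1* (942). The order of mitochondrial-encoded members and the share of *mt-Cytb* are uncertain for another reason, sequence shared with other genes, described below. None of the sequence searched was shared for *mt-Cytb*, *mt-Nd1* and *mt-Nd6*, against 51.1% for *mt-Co1* and 62.2% for *mt-Nd4*. For *mt-Co2*, *mt-Co3*, *mt-Atp6*, *mt-Nd4l* and *mt-Nd3* it was 98.0% to 100%. The part of shared sequence in this order was not tested.

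None of the 7 mitochondrial-encoded genes that passed the filter on low counts was called between the cell types. This was tested with edgeR's quasi-likelihood test over all 40 libraries with treatment as a term, where calls needed an adjusted p (Benjamini-Hochberg over all genes) of 0.05 or less and an absolute log2 fold change above 1, with positive values for genes higher in ES-motor neurons. Under this rule 14.9% of all 13227 genes tested were called (511 higher and 1461 lower in ES-motor neurons), against 0 of 7 mitochondrial-encoded and 1 of 78 nuclear-encoded members. At an unadjusted p under 0.05 edgeR counted 0 of 7 mitochondrial-encoded members, beside 3762 of all 13227 genes. DESeq2 called 0 of 12 (1839 of all 23718 genes tested) and limma-voom 0 of 7 (3107 of 13227), with 3 at an unadjusted p under 0.05 (5316 of all). Their median log2 fold change was 0.17, beside -0.21 over all genes tested, with standard errors (SE) of 0.15 to 0.20, and all 7 intervals (95%) lay between -1 and 1. All 7 values were positive, but that of *mt-Nd1* turned negative under RLE scaling (-0.01). Without the 9 shallow libraries, a fit chosen after seeing the data, edgeR called 0 of 8 (1641 of all 15721 genes), with 3 at an unadjusted p under 0.05 (3747 of all) and a median of 0.31. The 3 were *mt-Cytb*, *mt-Nd1* and *mt-Co1*, higher in ES-motor neurons with log2 fold changes of 0.50, 0.30 and 0.33 (adjusted p = 0.134, 0.173 and 0.184 by edgeR).

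*mt-Cytb* had 3154 normalised CPM in the lowest ES-astrocyte library, 18059 at the median and 26599.5 in the highest, and 4820.4, 18693.5 and 31856.5 in ES-motor neurons. edgeR gave it a log2 fold change of 0.18 (SE 0.19, adjusted p = 0.619). The ES-motor neuron libraries lay above the ES-astrocyte median in 10 cases and below it in 10, but 9 of the 11 deeper ones lay above it, and 9 of the 11 deeper pairs had the higher value in ES-motor neurons. *mt-Co1* had 1803, 4850 and 6288 CPM in ES-astrocytes, against 2230, 4694 and 8126 in ES-motor neurons, and its log2 fold change of 0.08 did not pass the test (SE 0.15, adjusted p = 0.789 by edgeR). Its ES-motor neuron libraries spread on both sides of the ES-astrocyte median, 9 above and 11 below, with 7 above and 4 below among the 11 deeper ones and the higher value in ES-motor neurons in 9 of the 11 deeper pairs.

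Among the complex I genes, *mt-Nd4* had 288, 1325 and 2121 CPM in ES-astrocytes, against 343.5, 1683 and 2226 in ES-motor neurons, log2 fold change 0.22 (SE 0.19, adjusted p = 0.514 by edgeR). *mt-Nd5* had 266.5, 1116 and 2234 CPM and 432, 1407 and 2345 CPM, log2 fold change 0.22 as well (SE 0.17, adjusted p = 0.443). For these genes 13 and 15 of 20 ES-motor neuron libraries lay above the ES-astrocyte median (7 and 9 of the 11 deeper ones, with log2 fold changes of 0.38 and 0.35 without the shallow libraries), yet the groups overlapped over most of their range. *mt-Nd1*, *mt-Nd2* and *mt-Nd6* had log2 fold changes of 0.04, 0.05 and 0.17 (SE 0.15, 0.20 and 0.17, adjusted p = 0.919, 0.918 and 0.601 by edgeR). Of the 11 deeper ES-motor neuron libraries 10, 8 and 9 lay above the ES-astrocyte median for these genes, 10, 4 and 7 of the 11 deeper pairs had the higher value in ES-motor neurons, and without the shallow libraries the log2 fold changes were 0.30, 0.07 and 0.29. *mt-Nd6* and *mt-Nd5* overlap at their ends on opposite strands, and the strand setting of the counting is not given, so that reads of the overlap may be assigned to either.

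The other 6 mitochondrial-encoded genes had almost no counts in any library. Over all 40 libraries *mt-Nd3* had 412 counts, *mt-Co3* 56, *mt-Atp6* 20, *mt-Nd4l* 18, *mt-Co2* 5 and *mt-Atp8* 0, beside 3202767 for *mt-Cytb* and 951875 for *mt-Co1*. They encode further subunits of complex I (*mt-Nd3*, *mt-Nd4l*), the other core subunits of complex IV (*mt-Co2*, *mt-Co3*) and the mitochondrial-encoded part of complex V (*mt-Atp6*, *mt-Atp8*). These 6 genes are neighbours and fill the stretch from base 7013 to base 10173 of the mitochondrial chromosome (GENCODE M21 on GRCm38). *mt-Nd3* reached at most 4.68 CPM (ES-astrocytes under IL-1α and TNF-α A), and *mt-Co3* at most 1.25 CPM.

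For 5 of these 6 genes the low counts coincide with sequence that the nuclear genome repeats. Every window of 50 bases along a transcript was searched for in the transcripts of all other genes. Of the windows of *mt-Co2*, *mt-Co3*, *mt-Atp6*, *mt-Nd4l* and *mt-Nd3*, 100%, 99.9%, 99.5%, 98.8% and 98.0% also occur in another gene, against 62.2% for *mt-Nd4*, 51.1% for *mt-Co1*, 8.19% for *mt-Nd2*, 7.61% for *mt-Nd5* and 0% for *mt-Nd1*, *mt-Nd6* and *mt-Cytb*. Copies of *mt-Nd4*, *mt-Nd4l*, *mt-Nd3*, *mt-Co3*, *mt-Atp6*, *mt-Co2* and *mt-Co1* lie in the same order on the minus strand of chromosome 1, between bases 24611535 and 24616197. They are the pseudogenes *Gm28439*, *Gm10222*, *Gm28438*, *Gm28437*, *Gm10925*, *Gm28661* and *Gm29216*, of which the first and the last cover 63.6% and 31.3% of their gene. These copies had few counts themselves, 2, 0, 1, 45, 59, 14 and 59 over all 40 libraries. The windows of *mt-Nd2* and *mt-Nd5* are shared with other genes (*Gm13339*, and *Gm4076* and *Gm11407*). *mt-Co1* also shares windows with *Gm13340* and *Gm11512*, and *mt-Co2* with *Gm13341*.

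*mt-Atp8* is the exception in that 0% of its windows are in another transcript, although 43 of its bases, which overlap *mt-Atp6*, are in *Gm10925*. Its other bases lie in the 230 bases between *mt-Co2* and *mt-Atp6*, and the gap between their copies on chromosome 1 spans 233 bases, which could not be compared without a genome sequence. How reads that fit more than 1 place were counted is not given in the sources used here, and the part of these copies in the low counts was not tested. The levels of these 6 genes are therefore uncertain, as are those of *mt-Nd4* and *mt-Co1*, and the mitochondrial-encoded shares above rest on 7 genes.

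**Figure D2:**
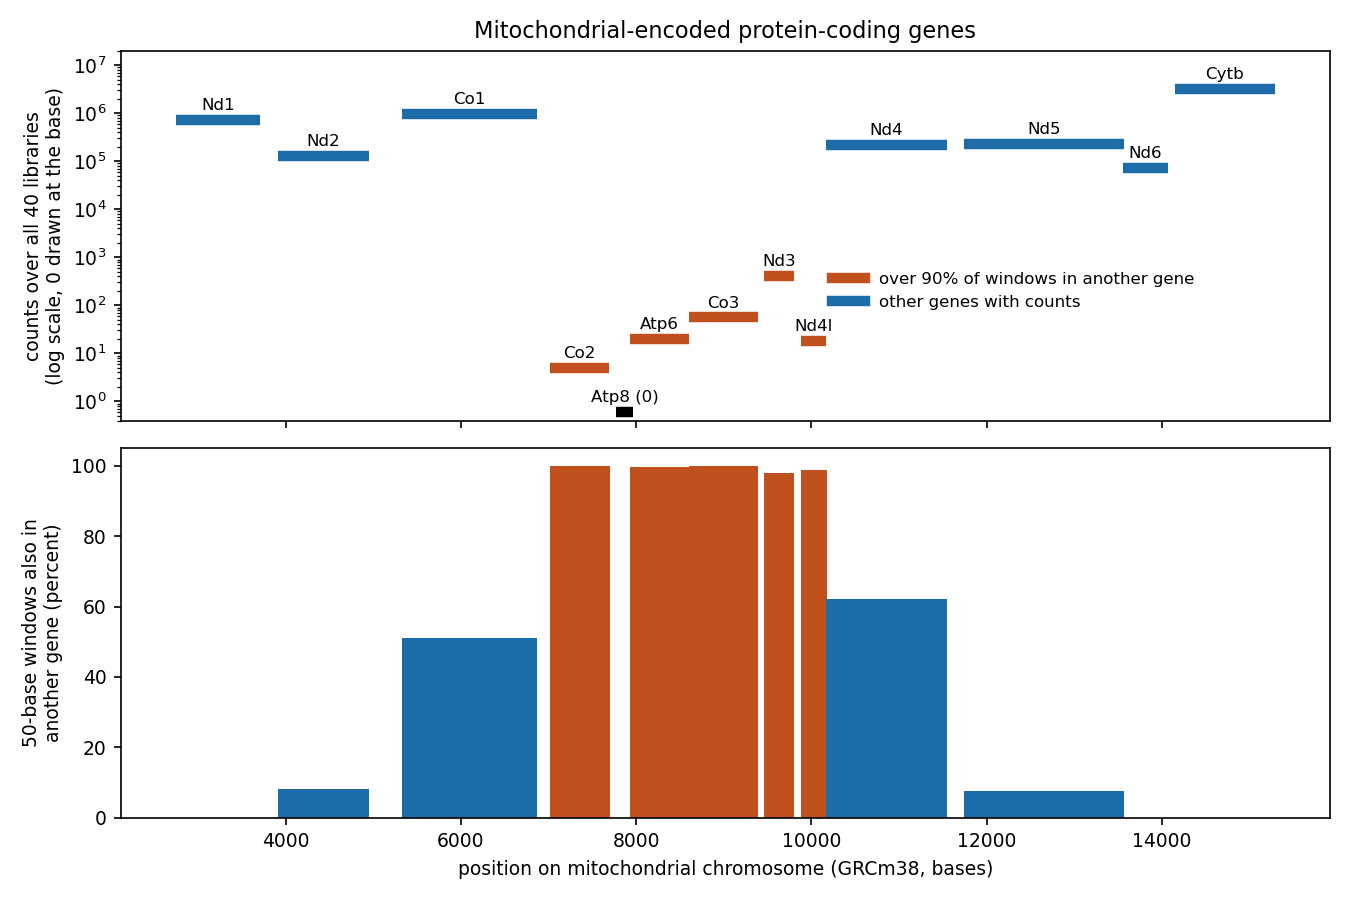
Counts of each mitochondrial-encoded gene summed over all 40 libraries (log scale) and percent of its windows of 50 bases that also occur in another gene, drawn by position on the mitochondrial chromosome (GRCm38). *mt-Co2*, *mt-Atp6*, *mt-Co3*, *mt-Nd3* and *mt-Nd4l*, with 98.0% to 100% of windows shared, had 5 to 412 counts, and 7 genes with 0% to 62.2% shared had 73012 to 3202767, while *mt-Atp8*, with 0% shared, had 0 counts.

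To show how close the copies are, the first bases of *mt-Atp6* (chrM:7927-8046, plus strand) stand beside the same bases of its copy *Gm10925* (chr1:24614532-24614651, minus strand), which match over all 678 aligned bases. A stretch of *mt-Co1* (chrM:6390-6509, plus strand) stands beside its copy *Gm29216* (chr1:24616069-24616188, minus strand), which matches at 482 of 483 aligned bases. The exception is A1066T, counted from 1 at the first base of *mt-Co1*, and capitals mark it. The sequences are those of GENCODE M21 transcripts on GRCm38.
mt-Atp6: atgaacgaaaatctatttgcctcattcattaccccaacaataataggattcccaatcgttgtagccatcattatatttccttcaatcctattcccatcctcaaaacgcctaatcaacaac
Gm10925: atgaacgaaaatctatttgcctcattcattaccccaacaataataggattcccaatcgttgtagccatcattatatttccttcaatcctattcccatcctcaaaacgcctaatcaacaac
mt-Co1: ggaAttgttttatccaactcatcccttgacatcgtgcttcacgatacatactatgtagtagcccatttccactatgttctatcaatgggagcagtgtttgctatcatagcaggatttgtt
Gm29216: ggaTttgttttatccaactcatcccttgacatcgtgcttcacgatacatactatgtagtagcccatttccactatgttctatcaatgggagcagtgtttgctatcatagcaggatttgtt

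Among the nuclear-encoded members, 1 of the 78 tested was called over all 40 libraries, *Cox6b2*, and 5 others passed the adjusted p with smaller differences. At an adjusted p of at most 0.05 alone, which 18.7% of all genes passed, *Cox5a* and *Ndufs1* were higher in ES-motor neurons and *Atp5e*, *Uqcr10* and *Ndufs6* lower. These 5 genes were singled out after their values were seen. At an unadjusted p under 0.05 the count was 11 of 78, beside 3762 of all 13227 genes. With 1 library left out, the highest adjusted p by edgeR was 0.0132 for *Cox5a* and 0.0176 for *Ndufs1*, but 0.0638 for *Atp5e*, 0.0519 for *Uqcr10* and 0.0769 for *Ndufs6*, which then no longer passed. Without the 9 shallow libraries only *Cox5a* of the 5 passed (adjusted p = 0.00342), with 0.0638 for *Ndufs1*, 0.434 for *Atp5e*, 0.305 for *Uqcr10* and 0.187 for *Ndufs6*. The median log2 fold change of the 78 was -0.05, beside -0.21 over all genes tested, with 35 values positive and 43 negative, and 70 intervals lay between -1 and 1. The sign of this median turned in either plate index alone (0.02 and 0.03), without the shallow libraries (0.17), with limma-voom (0.00) and under a stricter filter (0.04). DESeq2 called 1 of 81 nuclear-encoded members, beside 1839 of all 23718 genes tested, and limma-voom 1 of 78, beside 3107 of 13227.

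**Figure D3:**
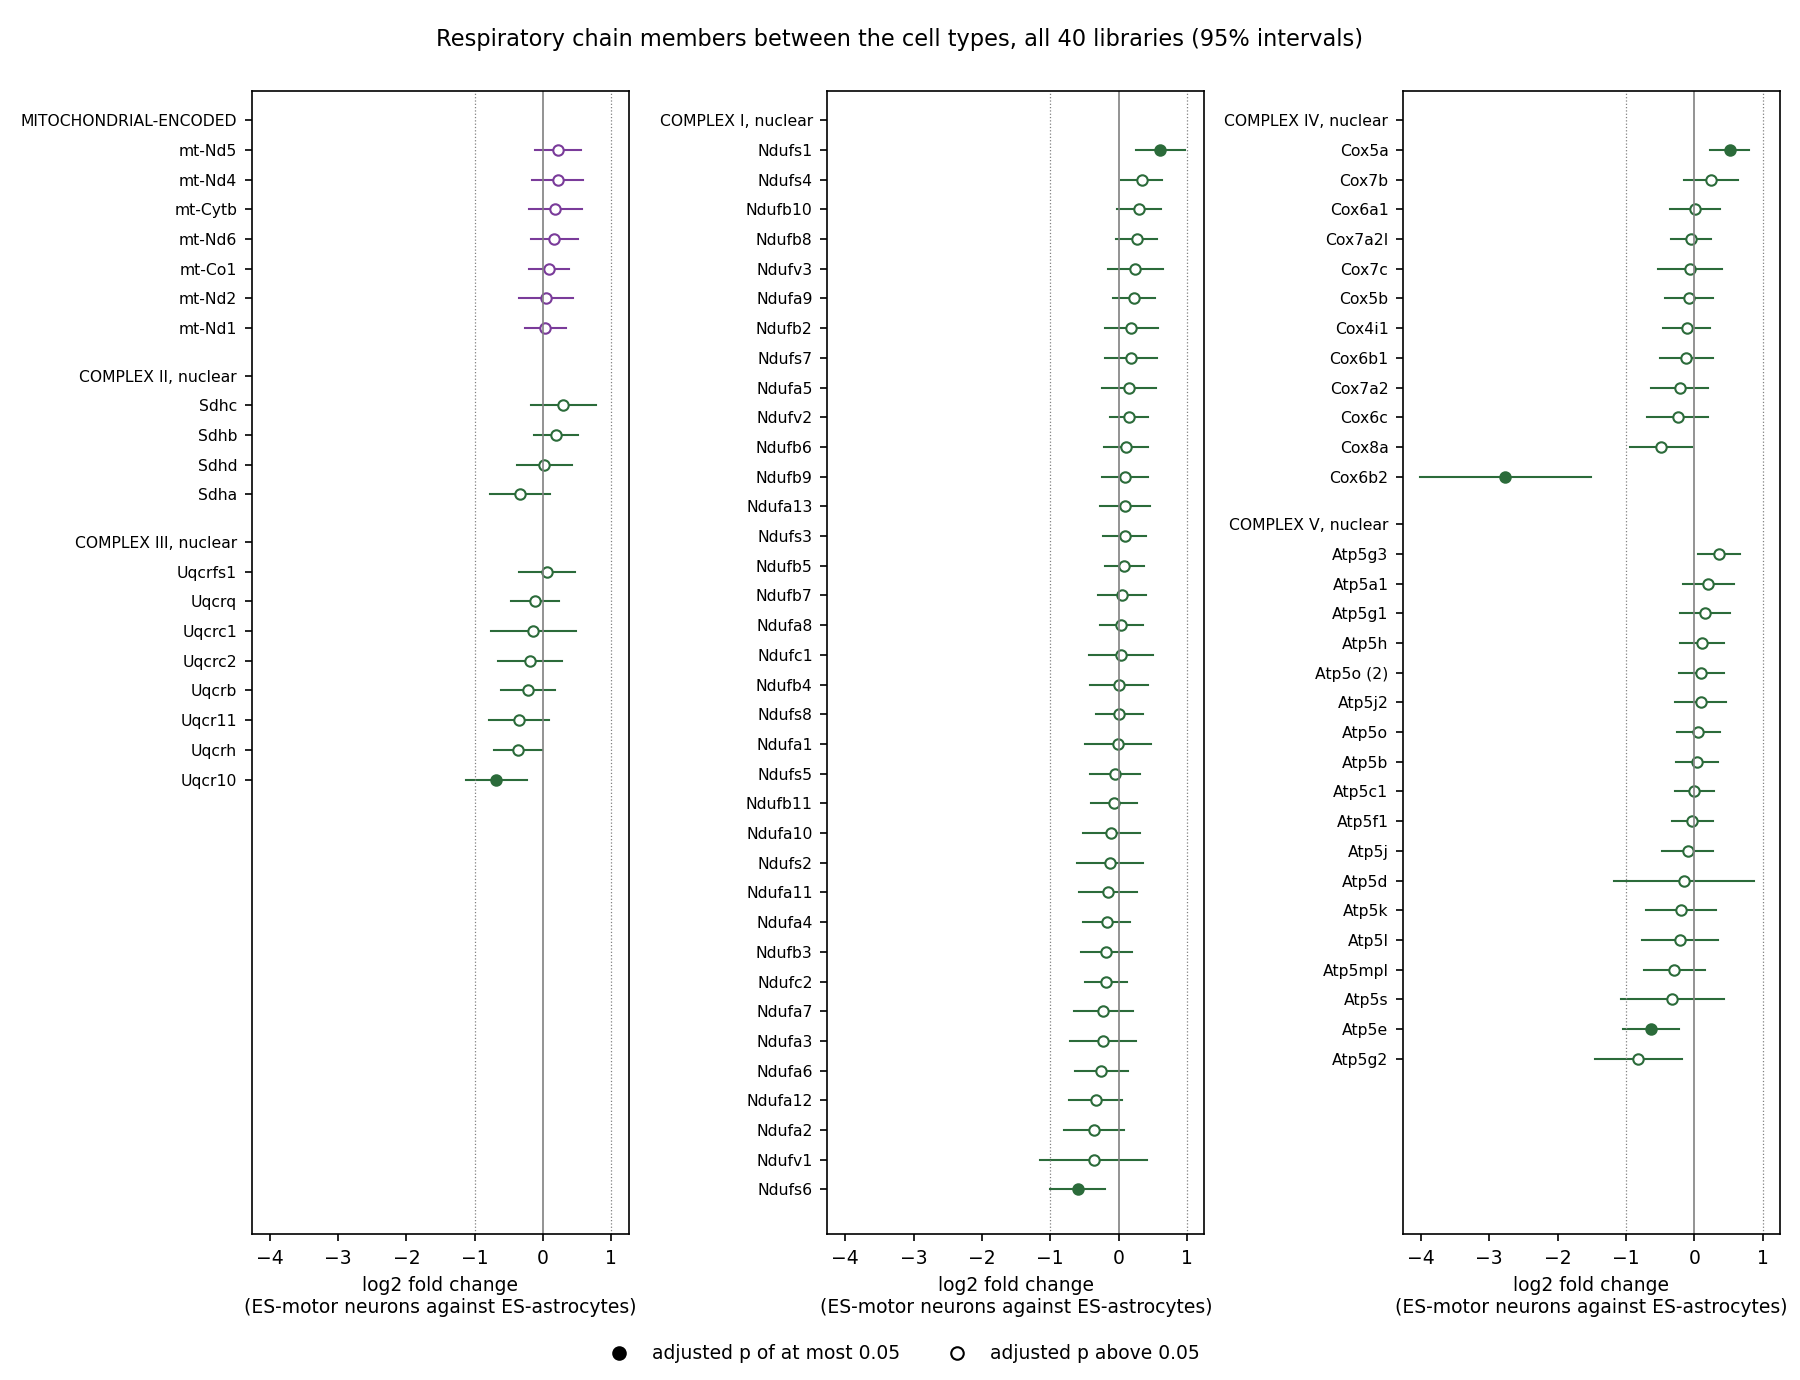
Log2 fold change (ES-motor neurons against ES-astrocytes, all 40 libraries, edgeR) of each member tested, with its 95% interval, by complex and by the genome that encodes it, with filled points at an adjusted p of at most 0.05. The mitochondrial-encoded values lie between 0.04 and 0.22, and *Cox6b2* of complex IV stands apart at -2.76.

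*Cox6b2* (ENSMUSG00000051811, chromosome 7 from 4751792 to 4753094 on GRCm38) encodes an isoform of complex IV subunit VIb known from testis, whereas *Cox6b1* encodes the isoform of other tissues. *Cox6b2* had 0 normalised CPM in the lowest ES-astrocyte library, 20.4 at the median and 41.1 in the highest, and 0, 1.75 and 8.67 in ES-motor neurons. ES-astrocytes had 0 counts in 2 libraries, control B and IL-1α and TNF-α D. ES-motor neurons had 0 counts in 7, all of them shallow, where the level could be up to 9.98 to 458 CPM, so that 4 of these 7 cannot be placed below the ES-astrocyte median. The 11 deeper ES-motor neuron libraries all had counts, at 0.429, 3.08 and 7.97 CPM. All 11 lay below the ES-astrocyte median, and 16 of 20 ES-astrocyte libraries lay above 7.97 CPM. The log2 fold change was -2.76 (95% interval -4.01 to -1.52, SE 0.62, adjusted p = 0.000706 by edgeR), with the lower value in ES-motor neurons in 9 of the 11 pairs of the same treatment and letter whose ES-motor neuron library is deeper.

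Without the 9 shallow libraries the log2 fold change of *Cox6b2* was -2.57 and the call was kept (adjusted p = 0.0217 by edgeR). Within plate index 1 alone it was -2.97 and the call was lost (adjusted p = 0.214 by edgeR), while within plate index 2 alone it was -2.57 and kept (adjusted p = 0.00760). Over the alternatives run, the adjusted p lay at 5.98e-06 to 0.214. The ubiquitous paralog *Cox6b1* had 268, 621 and 883 CPM in ES-astrocytes, against 146, 505 and 1021 in ES-motor neurons, log2 fold change -0.11 (SE 0.19, adjusted p = 0.780). Neither isoform shares a window of 50 bases with another gene, and per kilobase *Cox6b1* is one of the highest nuclear-encoded members, at 816 CPM. Markers of proliferating cells and of fibroblasts, whose sums are given above, were higher in ES-astrocytes as *Cox6b2* was, and their part in it was not tested.

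**Figure D4:**
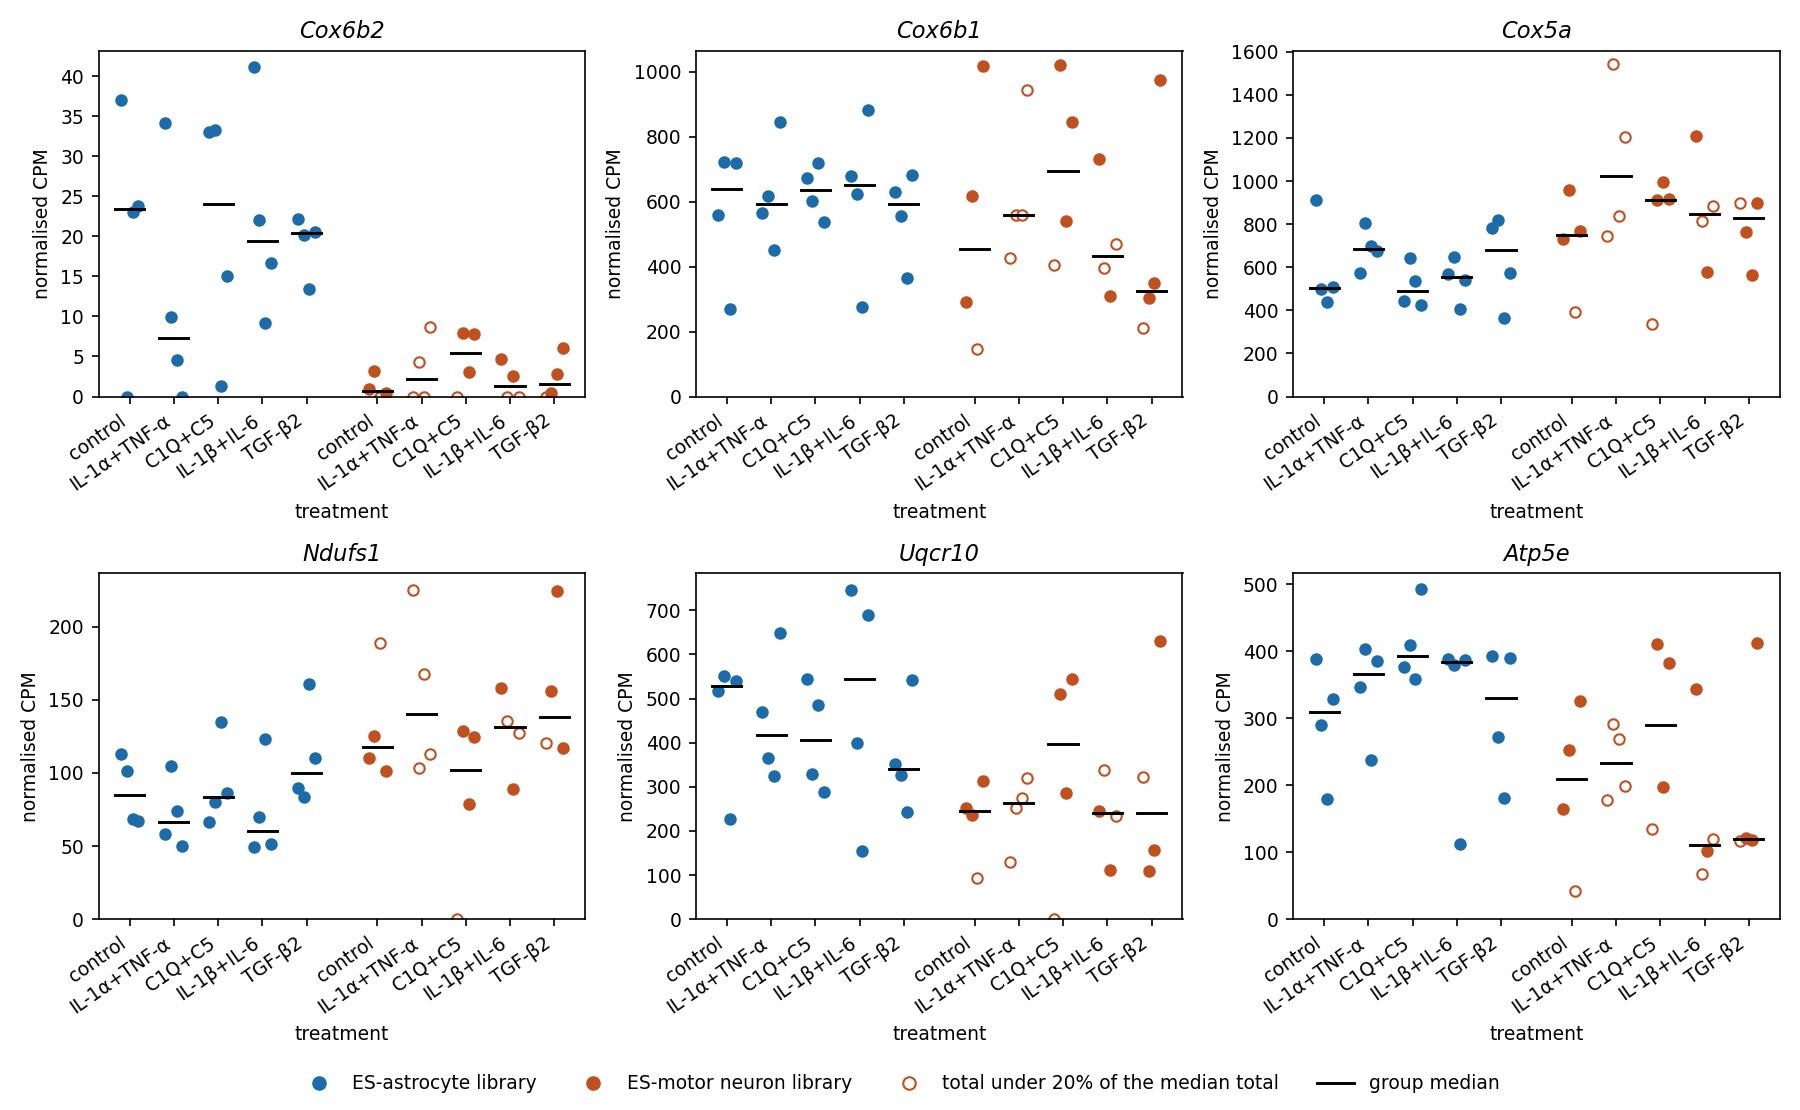
Normalised CPM of *Cox6b2*, its paralog *Cox6b1* and the genes *Cox5a*, *Ndufs1*, *Uqcr10* and *Atp5e* in each of the 40 libraries, by treatment and cell type, with bars at the group medians and open points for libraries under 20% of the median total. *Cox6b2* reached 41.1 CPM in ES-astrocytes, against 7.97 CPM in the deeper libraries of ES-motor neurons.

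For complex I, the nuclear-encoded members tested had a median log2 fold change of 0.02, 20 positive and 16 negative. *Ndufs1* encodes the largest of its iron-sulfur subunits, and had 49.5, 81.7 and 161 CPM in ES-astrocytes, against 0, 125 and 225 in ES-motor neurons (lowest, median, highest). The groups overlapped, and 18 of 20 ES-motor neuron libraries lay above the ES-astrocyte median. It was higher in ES-motor neurons by a log2 fold change of 0.61 (95% interval 0.26 to 0.97, adjusted p = 0.00921 by edgeR), with 0.95 within plate index 1 and 0.49 within plate index 2 (adjusted p = 0.0402 and 0.252). Of its windows, 5.93% also belong to overlapping genes.

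*Ndufs6*, a zinc-binding accessory subunit of complex I, had 98.5, 243 and 429.6 CPM in ES-astrocytes, against 0, 169 and 337 in ES-motor neurons, with 15 of 20 ES-motor neuron libraries below the ES-astrocyte median and 1 with 0 counts that cannot be placed. Its log2 fold change was -0.60 (95% interval -1.003 to -0.20, adjusted p = 0.0265 by edgeR), and -0.59 and -0.52 within plate index 1 and 2 (adjusted p = 0.315 and 0.275). The gene *Ndufs6b* shares 8.33% of its windows. The highest of the nuclear-encoded complex I members per kilobase of exon union were *Ndufa1* (942 CPM) and *Ndufa2* (797), both accessory subunits, with log2 fold changes of -0.01 and -0.36 that did not pass the test. *Ndufs4*, an accessory subunit whose loss is known to cause mitochondrial disease, had a log2 fold change of 0.33 (adjusted p = 0.120 by edgeR, named after its value was seen).

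The 4 members of complex II, succinate dehydrogenase, are all nuclear-encoded, and none passed the test between the cell types (median log2 fold change 0.10, 3 positive and 1 negative). *Sdhb*, its iron-sulfur subunit, was the highest of them per kilobase (348 CPM) and had 229, 738 and 1024 CPM in ES-astrocytes, against 67.6, 868 and 1181 in ES-motor neurons (log2 fold change 0.19). *Sdhd*, a membrane anchor, was next at 118 CPM per kilobase, with a log2 fold change of 0.02. Its values overlapped, at 62.2 to 315 CPM in ES-astrocytes, against 0 to 230.4 in ES-motor neurons.

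In complex III, 7 of 8 nuclear-encoded members had a negative log2 fold change (median -0.20, beside -0.21 over all genes). *Uqcr10*, a small subunit and the highest of them per kilobase (604 CPM), had 154, 434 and 746 CPM in ES-astrocytes, against 0, 253 and 631 in ES-motor neurons. The groups overlapped, and 16 of 20 ES-motor neuron libraries lay below the ES-astrocyte median, besides 1 with 0 counts that cannot be placed. Its log2 fold change was -0.68 (95% interval -1.13 to -0.23, adjusted p = 0.0233 by edgeR), and -0.84 and -0.49 within plate index 1 and 2 (adjusted p = 0.0807 and 0.414). *Uqcr11*, another small subunit at 420 CPM per kilobase, had a log2 fold change of -0.36 and *Uqcrh*, the hinge protein, of -0.37 (adjusted p = 0.150, named after its value was seen).

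In complex IV, the nuclear-encoded members that could be tested had a median log2 fold change of -0.10, 3 positive and 9 negative, with *Cox6b2* as described above. *Cox5a*, a subunit without a second isoform in the list, had 365, 569.9 and 912 CPM in ES-astrocytes, against 338, 861 and 1544 in ES-motor neurons. The groups overlapped, with 17 of 20 ES-motor neuron libraries above the ES-astrocyte median. It was higher in ES-motor neurons by a log2 fold change of 0.52 (95% interval 0.23 to 0.81, adjusted p = 0.00626 by edgeR), and 0.58 and 0.57 within plate index 1 and 2 (adjusted p = 0.217 and 0.0521). *Cox5a* shares 9.84% of its windows with the overlapping gene *Gm26631*. Per kilobase of exon union, *Cox7a2* (873 CPM) and *Cox6b1* (816) were the highest nuclear-encoded members of the complex, while by the longest transcript *Cox4i1* (1406) lay above *Cox7a2* (1250.4) and *Cox6b1* (934).

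Several subunits of complex IV have isoforms for different tissues, and in both cell types the isoforms of most tissues carried the counts. *Cox4i1* had 1049 CPM at the ES-astrocyte median and 938 in ES-motor neurons (log2 fold change -0.11), while *Cox4i2*, known from lung, had 5 counts over all 40 libraries. *Cox6a1* had medians of 496 and 527 CPM (0.01), while *Cox6a2* of heart and skeletal muscle had 55 counts. *Cox7a2* had medians of 828 and 698 CPM (-0.21) and *Cox7a2l*, which takes part in joining complexes III and IV, 129.8 and 129 CPM (-0.05), while the muscle isoform *Cox7a1* had 135 counts. These log2 fold changes did not pass the test, and the adjusted p of these 4 tested genes lay at 0.577 to 0.983.

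*Cox7b* had medians of 429 CPM in ES-astrocytes, against 513 in ES-motor neurons (log2 fold change 0.24, adjusted p = 0.485 by edgeR), and *Cox7b2* had 20 counts. *Cox8a* had medians of 308 and 216 CPM (log2 fold change -0.48, adjusted p = 0.145), while *Cox8b*, of muscle, and *Cox8c*, of testis, had 0 counts, which allows up to 0.152 to 458 CPM per library. *Ndufa4* had medians of 891 and 742 CPM (log2 fold change -0.18) and *Ndufa4l2*, known as induced by low oxygen, 106 counts. Of the 13 members below the filter, 6 mitochondrial-encoded and 7 nuclear-encoded, 10 had counts and were compared in CPM by a two-sided permutation test. None of these 10 had an adjusted p of at most 0.05, and the smallest unadjusted p was 0.141, for *Cox7a1*. Striated muscle markers summed to medians of 0.0384 CPM in ES-astrocytes, against 0 in ES-motor neurons, with *Ckm* at 0 counts in both.

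In complex V, the nuclear-encoded members had a median log2 fold change of -0.01, with 8 positive and 10 negative. *Atp5e*, the epsilon subunit of the catalytic head, had 112, 378 and 494 CPM in ES-astrocytes, against 42.3, 187 and 413 in ES-motor neurons. The groups overlapped, with 17 of 20 ES-motor neuron libraries below the ES-astrocyte median. Its log2 fold change was -0.63 (95% interval -1.04 to -0.22, adjusted p = 0.0206 by edgeR), and -0.45 and -0.67 within plate index 1 and 2 (adjusted p = 0.529 and 0.116). The highest members per kilobase of exon union were *Atp5k* (717 CPM), a subunit of the membrane part, and the entry ENSMUSG00000116933 of *Atp5o* (528), the subunit that joins head and stalk, with log2 fold changes of -0.20 and 0.10, while by the longest transcript the other entry of *Atp5o* (915) and *Atp5j* (835) lay above both. Of the windows of ENSMUSG00000116933 89.8%, and of those of the other entry, ENSMUSG00000022956, 34.9%, belong to overlapping genes too, each other included, so that neither level is certain.

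*Atp5g1*, *Atp5g2* and *Atp5g3* encode the same mature c subunit of the proton-driven ring behind different import signals. *Atp5g3* had 203, 303 and 545 CPM in ES-astrocytes, against 131, 371 and 692 in ES-motor neurons (log2 fold change 0.36, adjusted p = 0.104 by edgeR). *Atp5g1* had 136, 273 and 391 CPM and 0, 279 and 488 CPM (log2 fold change 0.16, adjusted p = 0.659). *Atp5g2* had 9.98, 29.7 and 47.1 CPM and 0, 14.0 and 35.5 CPM (log2 fold change -0.82, adjusted p = 0.0625). None of the 3 genes passed the test over all 40 libraries, although 17 of 20 ES-motor neuron libraries lay below the ES-astrocyte median for *Atp5g2*, besides 1 with 0 counts that cannot be placed. With 1 library left out, the adjusted p by edgeR ran from 0.0294 to 0.145 for *Atp5g3* and from 0.0311 to 0.140 for *Atp5g2*. *Atp5g2* shares 11.1% and *Atp5g1* 11.6% of its windows with other genes, and *Atp5g3* none.

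Other nuclear-encoded members also share sequence with pseudogenes or related genes, so that their counts are uncertain. More than 20% of windows were shared for *Ndufb4* (37.0%), *Ndufs3* (35.8%) and *Ndufs5* (31.1%) of complex I, *Cox7c* (27.9%) and *Cox5b* (25.9%) of complex IV and *Atp5h* (23.8%) of complex V. None of these genes, named here for this property, passed the test between the cell types.

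The comparison of the cell types in the controls alone, 4 libraries against 4, called none of the members by edgeR, where 2.24% of 10199 genes were called. At an unadjusted p under 0.05 the counts were 0 of 7 mitochondrial-encoded and 3 of 78 nuclear-encoded members, beside 1084 of all 10199 genes. DESeq2 called 763 of 17737 genes and limma-voom 464 of 10199, none of them a member. The 3 were *Cox6b2*, *Uqcr10* and *Atp5d*. *Cox6b2* had 37.1, 0, 23.0 and 23.8 CPM in ES-astrocytes A to D and 0.906, 3.22, 0 and 0.478 in ES-motor neurons A to D, so that the groups overlapped by ES-astrocyte B alone. Its log2 fold change was -3.85 (adjusted p = 0.442 by edgeR). *Uqcr10* had a log2 fold change of -1.02 and *Atp5d*, the delta subunit of the catalytic head of complex V, of -2.05 (adjusted p = 0.442 and 0.444). For *Atp5d* the ES-astrocyte controls A to D had 556, 58.0, 50.1 and 28.1 CPM, against 29.0, 81.2, 19.2 and 33.4 in ES-motor neurons, and without ES-astrocyte control A the value fell to -0.05. The medians were 0.20 for mitochondrial-encoded and -0.16 for nuclear-encoded members, beside -0.20 over all genes, and the nuclear-encoded median turned to 0.16 without the shallow control C, as the mitochondrial-encoded median did to -0.02 without ES-astrocyte control A.

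Taken within each of the other treatments, a comparison added after seeing the data, edgeR called none of the members between the cell types either, where it called 233 of 8249 genes under IL-1α and TNF-α, 258 of 8201 under C1Q and C5, 202 of 9520 under IL-1β and IL-6 and 361 of 9959 under TGF-β2. At an unadjusted p under 0.05 the nuclear-encoded counts were 2, 0, 3 and 1 and the mitochondrial-encoded counts 0, beside 881, 962, 925 and 1219 of all genes. *Cox6b2* had log2 fold changes of -1.77 under C1Q and C5, -3.03 under IL-1β and IL-6 and -2.88 under TGF-β2, and fell below the filter under IL-1α and TNF-α. *Cox5a* had 0.73, 0.67, 0.73 and 0.36 in the same order of the 4 stimuli, and *Ndufs1* 1.18, 0.12, 0.85 and 0.54. *Uqcr10* had -0.81, -0.13, -1.09 and -0.19, *Atp5e* -0.46, -0.45, -0.91 and -0.61, and *Ndufs6* -0.41, -0.04, -0.71 and -0.73. None of these 5 genes had an adjusted p of at most 0.05 within a treatment, and they were chosen from these same libraries.

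Whether a stimulus acted differently on the members in the cell types was tested as the interaction of treatment and cell type, with the 4 stimuli jointly. edgeR called 0% of 13227 genes and 0 members, and no member had an unadjusted p under 0.05, beside 808 of all genes. DESeq2 called 1 gene, not a member, and limma-voom 0. Without the shallow libraries and those of IL-1α and TNF-α, a fit chosen after seeing the data, edgeR called 0 of 15588 genes, and no member had an unadjusted p under 0.05, beside 797 of all genes. The smallest p among members was that of *Atp5d* (adjusted p = 0.918 by edgeR), followed by *Cox4i1* and *Ndufa9*, an accessory subunit of complex I.

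The stimuli were next compared with the control within each cell type, 4 libraries against 4. In ES-astrocytes edgeR called 0% of all genes for each stimulus, that is 0% of 10444 under IL-1α and TNF-α, 0% of 10865 under C1Q and C5, 0% of 10240 under IL-1β and IL-6 and 0% of 10794 under TGF-β2. At an unadjusted p under 0.05 these were 93, 106, 119 and 136 genes, with 0 members in each. DESeq2 called 21, 37, 56 and 58 genes and limma-voom 0, again without a member. The 4 comparisons share the control libraries.

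Mitochondrial-encoded members had median log2 fold changes of 0.07 under IL-1α and TNF-α, -0.09 under C1Q and C5, 0.39 under IL-1β and IL-6 and 0.15 under TGF-β2 in ES-astrocytes, and nuclear-encoded members 0.07, -0.02, 0.01 and -0.07. The medians of all genes were -0.08, -0.07, -0.07 and -0.06. Under IL-1β and IL-6 all 7 mitochondrial-encoded values were positive, 0.20 to 0.61, with limma-voom, RLE scaling and scaling without mitochondrial genes too. Their size depended on control A, whose mitochondrial-encoded share was 0.961%, against 2.82% to 3.38% in controls B to D and 2.88% to 3.38% under IL-1β and IL-6. Without control A the median was 0.05, and that of IL-1α and TNF-α was -0.24, that of C1Q and C5 -0.35 and that of TGF-β2 -0.12. The standard errors, with a median of 0.48, were of the size of these values, and none passed the test. The signs of the other medians were less stable: with limma-voom, IL-1α and TNF-α gave -0.18 and TGF-β2 -0.05 for mitochondrial-encoded members.

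The member of smallest p under each stimulus shows how the ES-astrocyte libraries spread. *Sdhd* of complex II had 127, 192, 126 and 106 CPM in controls A to D and 164, 248, 195 and 235 under IL-1α and TNF-α (log2 fold change 0.66, adjusted p = 1.00 by edgeR), and the groups overlapped by control B. *Uqcrc2*, a core protein of complex III, had 281, 196, 295 and 70.1 CPM in controls and 79.6, 200.1, 59.3 and 57.0 under C1Q and C5 (-1.05, adjusted p = 1.00). The groups overlapped here by control D and replicate B of the stimulus, and 24.8% of the windows of *Uqcrc2* also belong to the overlapping gene *Pdzd9*.

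*Atp5d* had 556, 58.0, 50.1 and 28.1 CPM in controls and 26.4, 86.9, 0.780 and 27.5 under IL-1β and IL-6 (log2 fold change -2.26, adjusted p = 1.00 by edgeR). *Ndufv1*, the complex I subunit that binds NADH, had 304, 29.96, 40.6 and 28.5 CPM in controls and 58.4, 33.8, 22.8 and 21.5 under TGF-β2 (-1.49, adjusted p = 1.00). For both genes control A alone stood far above all other ES-astrocyte libraries compared, and without it the log2 fold changes were -0.31 for *Atp5d* and 0.09 for *Ndufv1*. It is also the library with the lowest mitochondrial-encoded share.

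In ES-motor neurons, edgeR called 0% of 4479 genes under IL-1α and TNF-α, 0% of 7348 under C1Q and C5, 0% of 8327 under IL-1β and IL-6 and 0.0126% of 7947 under TGF-β2, which is 1 gene and not a member. At an unadjusted p under 0.05 the counts over all genes were 143, 322, 98 and 221, those of nuclear-encoded members 2, 2, 0 and 0, and those of mitochondrial-encoded members 0 in each. DESeq2 called 1, 0, 1 and 19 genes and limma-voom 0, without a member. Nuclear-encoded members had positive values in 70 of 75 cases under IL-1α and TNF-α (median 0.36, beside 0.03 over all genes) and in 64 of 77 under C1Q and C5 (median 0.38, beside -0.06). These medians remained positive under each alternative run, RLE scaling included (0.42 and 0.37).

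All 4 libraries under IL-1α and TNF-α are shallow, as is control C, so that stimulus and depth cannot be told apart there, and the part of depth was not tested. Without the shallow libraries, the median under C1Q and C5 was 0.34. Under IL-1β and IL-6 and under TGF-β2 the nuclear-encoded medians were 0.04 and 0.01, and turned to -0.20 and -0.10 without the shallow libraries. Mitochondrial-encoded members had medians of -0.02, 0.08, 0.12 and 0.14 in the same order of stimuli, with standard errors of 0.49, 0.46, 0.41 and 0.32 at the median. With limma-voom the second of these turned to -0.51.

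By library, *Atp5d* had 29.0, 81.2, 19.2 and 33.4 CPM in control ES-motor neurons A to D, 338, 123, 73.8 and 0 under IL-1α and TNF-α (log2 fold change 1.91, adjusted p = 0.990 by edgeR) and 279, 45.2, 26.5 and 33.5 under IL-1β and IL-6 (1.27, adjusted p = 1.00). Replicate A was the highest under either stimulus, the groups overlapped, and without this replicate of the stimulus the log2 fold changes were 0.85 and -0.32. *Uqcrc1*, the other core protein of complex III, had 457, 499, 258 and 188 CPM in controls and 338, 116, 99.5 and 166 under C1Q and C5 (-1.31, adjusted p = 0.997 by edgeR). Its groups overlapped by replicate A of the stimulus, the library of 6557 counts.

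*Sdhc*, a membrane anchor of complex II, had 168, 187, 158 and 136 CPM in control ES-motor neurons and 95.3, 101, 122 and 103 under TGF-β2. These groups did not overlap, with all 4 values under TGF-β2 below the controls, but the difference did not pass the test (log2 fold change -0.63, adjusted p = 0.999 by edgeR). *Sdhc* was chosen as the member of smallest p in a comparison where 0.0126% of genes were called.

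Genes around the respiratory chain were taken from 7 lists and tested over all 40 libraries, where 14.9% of genes were called and the median was -0.21. Of 47 assembly factors tested, 1 was higher and 1 lower in ES-motor neurons (median log2 fold change 0.00). *Cox17*, which carries copper to complex IV, had 53.1, 161 and 298 CPM in ES-astrocytes, against 16.8, 62.5 and 145 in ES-motor neurons and was lower there (log2 fold change -1.28, adjusted p = 3.44e-05 by edgeR). *Ttc19*, a factor of complex III, had 0, 13.5 and 76.7 CPM and 11.8, 35.5 and 77.0 CPM and was higher (1.28, adjusted p = 0.0160). *Lyrm7*, which serves the iron-sulfur protein of complex III, had a log2 fold change of 0.78 (adjusted p = 0.0479), under the minimum of 1. The cell types overlapped for all 3.

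Of 20 genes of mitochondrial DNA replication and transcription, 1 was lower in ES-motor neurons and none higher (median -0.40). This was *Mgme1*, an exonuclease, at medians of 3.98 and 0 CPM (log2 fold change -2.57, adjusted p = 0.0355 by edgeR). In the shallow ES-motor neuron libraries a count of 0 allows up to 6.73 to 458 CPM. A 0 there cannot be placed below the ES-astrocyte median of *Mgme1*. *Ssbp1*, the mitochondrial single-stranded DNA-binding protein, had a log2 fold change of -0.66 (adjusted p = 0.00116), and *Primpol*, a primase and polymerase, of -1.67 (adjusted p = 0.121). Of 18 genes of mitochondrial RNA processing none was called by edgeR (median 0.07, none at an adjusted p of at most 0.05). Those of smallest p were *Angel2* (-0.34), *Hsd17b10*, a subunit of mitochondrial RNase P (0.29), and *Ptcd2* (1.04).

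Of 10 regulators of mitochondrial biogenesis tested, 1 was higher and 2 were lower (median -0.48). *Gabpa*, a transcription factor subunit of the ETS family, had medians of 32.5 CPM in ES-astrocytes, against 9.77 in ES-motor neurons (log2 fold change -1.13, adjusted p = 0.0271 by edgeR), and *Nfe2l2*, a regulator of antioxidant genes, 19.8 and 4.27 CPM (-2.65, adjusted p = 0.0127). *Perm1*, a regulator known from muscle, was higher (4.50, adjusted p = 0.00342) but had a median of 0 in both cell types and at most 9.44 CPM. *Gabpa* overlaps *Atp5j* of complex V, and 20.2% of the windows of *Atp5j* also belong to it.

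Of 23 genes of the tricarboxylic acid cycle and pyruvate entry, 2 were lower in ES-motor neurons (median -0.11): *Idh2*, the mitochondrial NADP-dependent isocitrate dehydrogenase, at medians of 40.6 and 4.88 CPM (log2 fold change -1.75, adjusted p = 0.0396 by edgeR), and *Suclg2*, a subunit of succinate-CoA ligase, at 3.10 and 0 CPM (-2.97, adjusted p = 0.0482). The cell types overlapped for *Idh2*, at 2.70 to 97.6 CPM in ES-astrocytes, against 0 to 135 in ES-motor neurons. As for *Mgme1*, a 0 in a shallow library cannot be placed below the ES-astrocyte median of *Suclg2*. *Mpc1*, a pyruvate carrier subunit, had 65.9 and 122 CPM and a log2 fold change of 0.88 (adjusted p = 0.000167), under the minimum of 1. Of 18 carriers and channels none was called (median -0.06), with *Atpif1*, the inhibitor of complex V, at 0.53 (adjusted p = 0.0235), *Slc25a4*, an ADP/ATP carrier, at 0.61 (adjusted p = 0.0521) and *Ucp2*, an uncoupling protein, at -2.36 (adjusted p = 0.0766).

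None of the 78 genes of the mitochondrial ribosome, which translates the mitochondrial-encoded members, was called by edgeR, 4 had an adjusted p of at most 0.05, and 61 of 78 had a negative log2 fold change (median -0.23, close to that of all genes). Those of smallest p were *Mrpl33* (-0.78, adjusted p = 0.00475), *Mrpl13* (-0.52, adjusted p = 0.0220) and *Mrps34* (-0.79, adjusted p = 0.0277). In the controls alone, none of the genes of the 7 lists was called by edgeR.

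The promoters of nuclear-encoded members were searched for letters bound by known regulators of these genes. Promoters (250 bases before to 50 after the gene start, RefSeq, GRCm38.p6) were found for 68 of 84 symbols, 2 of them through an older symbol. GCGCATGCG, the core of the NRF1 motif, was searched on both strands, as were CCGGAAGT, an ETS motif bound by GABPA, AAGATGGC of YY1 and TCAAGGTCA of ESRRA. A gene symbol with several promoters was counted once, with a match in any of them. The NRF1 letters stood in a promoter of 8 of 68 member symbols (11.8%, beside 1.95% of all 27025 symbols with a promoter), among them *Cox6a1*, *Uqcrc1*, *Uqcr11* and *Atp5g2*. The ETS letters stood in 5 (7.35%, beside 4.31%), among them *Cox8a* and *Uqcrh*, the YY1 letters in 10 (14.7%, beside 3.19%), among them *Ndufc1*, *Ndufs4* and *Ndufs6*, and the ESRRA letters in 2 (2.94%, beside 126 of 27025), *Atp5g3* and *Sdhd*. At least 1 of the 4 stood in 24 of 68 (35.3%, beside 9.39%), and of the 5 genes past the adjusted p that have a promoter in the table only *Ndufs6* had one. The NRF1 and YY1 members named here are examples chosen after the matches were seen. A match is a description of these letters in the window and says nothing about binding or about the differences above.

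To show what a match looks like, 1 promoter with each motif is given, with the matched letters in capitals (RefSeq, GRCm38.p6, all on minus strand genes): *Cox6a1* with NRF1 letters that match on both strands in overlap (chr5:115348909-115349208), *Cox8a* with ETS letters at 2 places, read on the other strand as ACTTCCGG (chr19:7217567-7217866), *Ndufc1* with YY1 letters (chr3:51408906-51409205) and *Atp5g3* with ESRRA letters, read on the other strand as TGACCTTGA (chr2:73911277-73911576).
Cox6a1: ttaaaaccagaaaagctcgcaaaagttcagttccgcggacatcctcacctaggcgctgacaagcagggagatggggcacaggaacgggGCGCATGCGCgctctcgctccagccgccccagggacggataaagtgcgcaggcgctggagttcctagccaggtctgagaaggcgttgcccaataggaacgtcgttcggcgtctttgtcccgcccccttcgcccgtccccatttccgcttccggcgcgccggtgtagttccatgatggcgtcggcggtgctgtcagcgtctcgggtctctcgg
Cox8a: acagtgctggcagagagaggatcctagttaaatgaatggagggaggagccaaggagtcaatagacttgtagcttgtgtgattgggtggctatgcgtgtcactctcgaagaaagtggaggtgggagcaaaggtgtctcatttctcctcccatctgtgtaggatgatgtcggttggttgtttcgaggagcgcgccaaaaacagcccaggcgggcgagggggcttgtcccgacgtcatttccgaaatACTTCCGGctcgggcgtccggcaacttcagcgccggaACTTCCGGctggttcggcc
Ndufc1: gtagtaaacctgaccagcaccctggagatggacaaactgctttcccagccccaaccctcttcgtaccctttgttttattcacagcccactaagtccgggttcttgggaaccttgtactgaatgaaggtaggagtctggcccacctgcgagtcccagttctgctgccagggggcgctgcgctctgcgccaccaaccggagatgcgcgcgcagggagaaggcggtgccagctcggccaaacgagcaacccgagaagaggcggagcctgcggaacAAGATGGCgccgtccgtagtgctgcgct
Atp5g3: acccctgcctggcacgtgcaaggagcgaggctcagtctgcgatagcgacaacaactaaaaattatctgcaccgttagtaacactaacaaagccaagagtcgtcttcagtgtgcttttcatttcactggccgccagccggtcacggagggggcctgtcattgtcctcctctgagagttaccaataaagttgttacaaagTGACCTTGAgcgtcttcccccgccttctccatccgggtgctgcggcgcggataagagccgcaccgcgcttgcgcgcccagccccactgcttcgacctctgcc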

How the data were processed

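Per the labels and the methods of the paper, RNA of 40 sorted samples was sequenced, demultiplexed and mapped with STAR (version not given), and DESeq2 is the tool the submitters name for differential expression. The deposited table holds raw read counts per Ensembl gene for the 40 libraries, and the genome build, annotation, counting tool, strand setting and treatment of reads with several places are not given. The plate index, an other unit, stands in the authors' sample sheet per the file headers, and the cell types were also compared within each plate index. GENCODE M21 (GRCm38) named 55227 of the 55487 genes, and the 260 without a name hold 0.117% of counts. Another 36 genes with matching symbols are not protein-coding and were left out.

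Genes were filtered with filterByExpr, scaled by TMM and tested by quasi-likelihood with robust estimation in edgeR 4.0.16 under R 4.3.3, with treatment as a term over all 40 libraries and treatment by cell type for the interaction. Adjusted p were computed over all genes tested, and scripts were tested on simulated data. Members below the filter were compared in CPM by permutation. Levels per length divide normalised CPM by the union of exons. Alternatives used DESeq2 1.42.0, limma 3.58.1 (voom with sample quality weights), RLE scaling, scaling without mitochondrial genes, other filters and other libraries. The other steps used Python 3.11.15, matplotlib 3.10.9, Biopython 1.88, scipy 1.17.1, numpy 2.4.6 and pandas 2.3.3.

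The members and lists were chosen with earlier results of these data known. Named genes were the mitochondrial-encoded members, the nuclear-encoded members called between the cell types over all 40 libraries, the isoforms of a subunit, the 2 nuclear-encoded members of each complex highest per kilobase of exon union, the member of smallest p for each stimulus and the 3 genes of smallest p in each list. Others were named after their values were seen, among them *Cox5a*, *Ndufs1*, *Atp5e*, *Uqcr10* and *Ndufs6* for their adjusted p (*Uqcr10* is also one of the highest of complex III).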

Additional observations from a re-analysis of the deposited data

Results flagged for a closer look

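Of 55 groups of 4 libraries looked at, 6 held a library far from the other 3. Chance alone marks about 1 in 20 groups picked without regard to their values, which is no measure for the 4 groups of *Atp5d*, *Ndufv1* and *Uqcrc2* below, since these genes were picked for the smallest p under a stimulus. Among ES-motor neurons, replicate C under C1Q and C5 had a ratio of mitochondrial-encoded to nuclear-encoded counts of 1.20 (others 0.821 to 0.878), and replicate D under TGF-β2 had a nuclear-encoded share of 3.64% (others 1.86% to 2.08%). *Atp5d* had 279 CPM in replicate A of ES-motor neurons under IL-1β and IL-6 (others 26.5 to 45.2). Among ES-astrocytes, control A had 556 CPM of *Atp5d* (others 28.1 to 58.0) and 304 CPM of *Ndufv1* (others 28.5 to 40.6), and replicate B under C1Q and C5 had 200.1 CPM of *Uqcrc2* (others 57.0 to 79.6). The cause was not tested.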

How the results depend on the processing

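Of the alternatives to the counts of members called and to the shares and levels, 466 were labelled the same and 2 moved. The 2 concern the nuclear-encoded members called between the cell types over all 40 libraries. These went from 1 to 0 within plate index 1 alone, which has fewer samples, and to 6 without a minimum of the fold change. A label of the same does not exclude a shift in size. Many of these alternatives are counts of members in the comparisons of a stimulus with the control or in the interaction. There 0% or 0.0126% of all genes were called, so that a count of 0 members had little room to move. The median level of nuclear-encoded members was 266 CPM per kilobase in the alternative run for levels. By the exon union this median was 175 CPM (ES-astrocytes) or 164 CPM (ES-motor neurons) per kilobase. Of the alternatives for named genes, 1513 gave the same result, 67 turned the sign of a value that had not passed the fold minimum, and 1 lost a call (*Cox6b2* within plate index 1 alone, -2.97). *Cox6b2* ran from -2.97 to -1.63 over alternatives and from -2.89 to -2.59 with a library left out, always called in the latter. The fits within a plate index, within a treatment, over the 20 libraries of a cell type and without the 9 shallow libraries (cell types, and interaction of the 3 stimuli other than IL-1α and TNF-α) were chosen after seeing the data.

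Signs turned only for genes that had not passed the test, and the cause was not tested. Within plate index 1 alone the log2 fold change was 0.0444 for *Cox6b1*, 0.0266 for *Ndufa1* and -0.10 for *Atp5o*, and within plate index 2 alone 0.0873 for *Cox4i1*, 0.17 for *Cox7a2l* and 0.0368 for *Ndufa1*. Without the shallow libraries *Cox6b1* had 0.144, *Cox4i1* 0.203, *Cox7a2l* 0.161, *Ndufa1* 0.233 and *Atp5k* 0.108. DESeq2 gave -0.0268 for *Cox6a1* and -0.000323 for *Sdhd*, and limma-voom 0.000827 for *Cox7a2l*, 0.126 for *Ndufa1* and -0.0128 for *Sdhd*. RLE scaling gave -0.00853 for *mt-Nd1*, -0.0299 for *Cox6a1* and -0.00521 for *Sdhd*. Without a filter *Cox6a1* had -0.00425, and under a stricter filter *Cox7a2l* had 0.0379 and *Ndufa1* 0.071. With a library left out, values ran from -0.0149 to 0.113 for *mt-Nd1*, -0.0191 to 0.1996 for *mt-Nd2*, -0.0468 to 0.104 for *Cox6a1*, -0.0673 to 0.0249 for *Cox7a2l*, -0.148 to 0.0739 for *Ndufa1* and -0.0225 to 0.152 for *Sdhd*.

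With a replicate block, *mt-Nd1* had -0.0168, *Cox6a1* -0.0618 and *Sdhd* -0.0193. The block took the calls of all genes between the cell types over all 40 libraries from 1972 to 1775 and in the controls from 228 to 41, with 1 and 0 nuclear-encoded members. Over 20 pairs across the cell types with the same treatment and letter, correlations of a library with its partner ran from -0.17 to 0.11, and 8 were best with their own partner. The labels do not say whether such a pair comes from the same co-culture. Over 32 pairs of a stimulus and the control with the same letter they ran from -0.24 to 0.43 (highest for replicate A of ES-astrocytes under TGF-β2), with 3 above 0.1, and all 4 were positive for TGF-β2 in ES-motor neurons (0.05 to 0.14), where the block took the calls from 1 to 4, none a member. No comparison had every pair above 0.1, so that no pairing was used. Leaving out the 9 shallow libraries took the calls between the cell types to 1641, with 0 mitochondrial-encoded and 1 nuclear-encoded members, and could not be run for IL-1α and TNF-α in ES-motor neurons, where none is left. Leaving out replicates was not run for the interaction. Depth limits the ES-motor neuron comparisons most, where a count of 0 can hide up to 458 CPM.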

Other observations

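The mitochondrial ribosomal RNAs, which are not protein-coding, held a median of 0.575% of the counts of ES-astrocyte libraries and 0.626% for ES-motor neurons. The highest value was 1.93%, in ES-astrocytes under C1Q and C5 D.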
